A study of Mus musculus with 8 samples.

Results

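Collagens, laminins and other extracellular matrix genes were read in open neural tube and neural tube protrusions of mouse embryos of diabetic FVB dams, prepared at 8.5 days of gestation. The members were chosen by symbol: every gene named as a collagen or laminin chain, with fibronectin, nidogens 1 and 2, perlecan, Sparc, versican, periostin, decorin, lumican, agrin, fibrillins 1 and 2 and the hyaluronan synthase Has2. This gave 66 of the 26608 genes listed. They comprised 23 genes of the basement membrane (8 collagens, 11 laminin chains and 4 nidogens or proteoglycans), 11 fibrillar collagens, 23 other collagens and 9 interstitial or matricellular genes. All symbols fell within the rule as collagen or laminin chains or as matrix genes of the list, except that Has2 codes for an enzyme that makes matrix and not for a matrix protein.

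The 8 libraries were made by SAGE, which reads 1 short tag near the 3′ end of each transcript. In 4 of them, open neural tubes 9, 10, 13 and 14, the tissue was normally shaped open neural plate taken immediately in front of the first site at which the neural folds close. The other 4 were protrusions, abnormal outgrowths cut from the open neural plate, of which protrusion 1 was labelled as separated and protrusions 2, 3 and 4 as attached. All embryos came from diabetic dams of the FVB strain and all tissue was cut by laser from cryosections, so there was no library from a nondiabetic pregnancy. The labels give no treatment for the diabetes, no axial level for the protrusions and no statement that each library is a different embryo, and protrusions 1 and 2 have titles with a common stem. P-values therefore measure only how far these libraries spread, which may in part be technical.

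The basement membrane is a thin sheet under epithelia such as the neural plate. Laminins, trimers of an alpha, a beta and a gamma chain, assemble at the cell surface; type IV collagen, a trimer of Col4 chains, forms a separate covalent network; and nidogens and heparan sulfate proteoglycans such as perlecan and agrin link or fill the sheet. Fibrillar collagens, of which type I is a trimer of Col1a1 and Col1a2 chains, form the banded fibers of the interstitial matrix that mesenchymal cells lay down. In the early embryo both kinds of matrix surround the neural folds, with fibronectin, versican and hyaluronan in the spaces between tissues.

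A member's level is given as CPM, its read count scaled to the total of all gene reads in the library. Since a SAGE library holds 1 tag per transcript, levels were not divided by transcript length, but a gene with a poorly captured tag reads low whatever its abundance. The enzyme that fixed the tags is not named in the labels. CATG, the site of the enzyme commonly used in such kits, was therefore located at its 3′-most position in the longest coding transcript of each member (GENCODE M21, build GRCm38). All 66 members had such a site. The expected tags of 10 members are shown because the levels below rest on reads of such short stretches and because their distance from the end of the transcript bears on the results. CATG is in capitals, the tag runs 5′ to 3′ on the transcript, and the sequence is that of the reference strain and not of FVB.
Agrn: CATGaaataaagtctgaaaac
Nid2: CATGgggttggcccagcgaag
Lama5: CATGggcagggacacactccg
Lamb1: CATGgtgaaggaagcattaga
Lamc1: CATGgaattttcctttgattc
Col4a1: CATGgtgtctgataatgagcc
Col4a2: CATGgctctagccaaacccac
Col1a2: CATGgttccaaagaagtcttg
Col3a1: CATGccacaggatcttctctt
Col11a1: CATGttaacattcaaagataa

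The tag of Agrn lies in the 3′ UTR on the minus strand at chr4:156165297-156165317, 28 bases before the annotated end of the transcript. Those of Lama5 (chr2:180176983-180177003, minus strand) and Lamb1 (chr12:31326601-31326621, plus strand) lie in coding sequence, 508 and 734 bases from the end. The tag of Nid2 (chr14:19811619-19811639, plus strand) lies in the 3′ UTR at 169 bases and that of Lamc1 (chr1:153219088-153219108, minus strand) in the 3′ UTR at 187 bases. The other printed tags also lie in 3′ UTRs: Col4a1 at chr8:11198907-11198927 (minus strand), Col4a2 at chr8:11449080-11449100 (plus strand), Col1a2 at chr6:4541408-4541428 (plus strand), Col3a1 at chr1:45349527-45349547 (plus strand) and Col11a1 at chr3:114220430-114220450 (plus strand). Over the 66 members the site lay 5 to 793 bases from the transcript end (median 167.5), and 53 tags were in the 3′ UTR and 6 in coding sequence. Another 2 tags spanned a boundary. In 5 members, among them Col1a1 and Col4a5, the site lay too near the transcript end to give a 21-base tag. No full-length tag of a member was shared with another gene, and sharing could not be checked for those 5. For 30 members the coding transcripts did not differ, giving 1 tag or, as for Col1a1, none of full length. Col18a1, with 5 different tags in 5 coding transcripts, and Vcan, with 8 in 8, are not shown because their transcripts differ. The sources used here do not give the rule by which tags were assigned to genes in the deposited counts.

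Library totals ran from 5668054 to 16655583 reads, so that 3 reads, taken as the floor of detection, stood for 0.180 to 0.529 CPM. The open neural tube libraries missed more transcripts: among 3280 genes averaging 5 to 20 CPM, the share with no read was 4.85% to 18.8% in an open neural tube and 0.0915% to 0.549% in a protrusion. Open neural tube 13 stood apart, with a summed level of 197 CPM for 10 neuroepithelial markers against 922 to 1496 CPM in the other open neural tubes and 537 to 1133 CPM in the protrusions. Its 10 mesenchymal and paraxial mesoderm markers summed to 1420 CPM, against 120 to 371 CPM in the other open neural tubes and 288 to 791 CPM in the protrusions. Results below that rest on this library, or on the separated protrusion 1, are given with and without it. The neuroepithelial sum hides opposite moves. Against open neural tubes 9, 10 and 14, the attached protrusions were lower in Sox1, Pax6, Zic1, Nes and Hes5. They were higher in Sox3 and Cdh2, and overlapped in Sox2 and Zic2. Zic1, for example, was at 0.430 to 1.05 CPM in them against 105 to 352 CPM, and Sox3 at 23.9 to 50.7 CPM against 0 to 3.18 CPM. Msi1 was at 0 in every open neural tube and at 1.00, 57.2 and 0.120 CPM in protrusions 2, 3 and 4. The last value lay below the 3-read floor, and most Msi1 reads came from protrusion 3. In tissue pieces such as these, fewer cells of a type and less RNA per cell cannot be told apart.

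Of the 66 members, 63 had at least 1 read. Col4a3, a type IV chain of specialised membranes such as that of the glomerulus, Col25a1 and Col28a1 were at 0 in every library. Members with at least 3 reads numbered 32, 28, 42 and 34 in open neural tubes 9, 10, 13 and 14, and 43, 45, 50 and 49 in protrusions 1 to 4. The groups did not overlap (mean 34 ± 5.89 against 46.8 ± 3.30, SD, n = 4 each). The same held over all 26608 genes, of which 9044 to 11121 had at least 3 reads in an open neural tube and 12667 to 14619 in a protrusion (mean 10132 ± 968 against 13507 ± 817), so this count is no result about the members. A group of 18 members was at 0 in all 4 open neural tubes, and 15 of these had reads in protrusions.

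The summed level of the members went the other way. It was 1773, 2138, 2051 and 1851 CPM in open neural tubes 9, 10, 13 and 14 and 1617, 1346, 1342 and 1410 CPM in protrusions 1 to 4, so every open neural tube lay above every protrusion. Most of this sum came from Col18a1, Agrn, Vcan, Col4a1 and Fn1, the members with a mean of at least 100 CPM in a group. The sum is given without a test, since members are not independent.

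**Figure D1:**
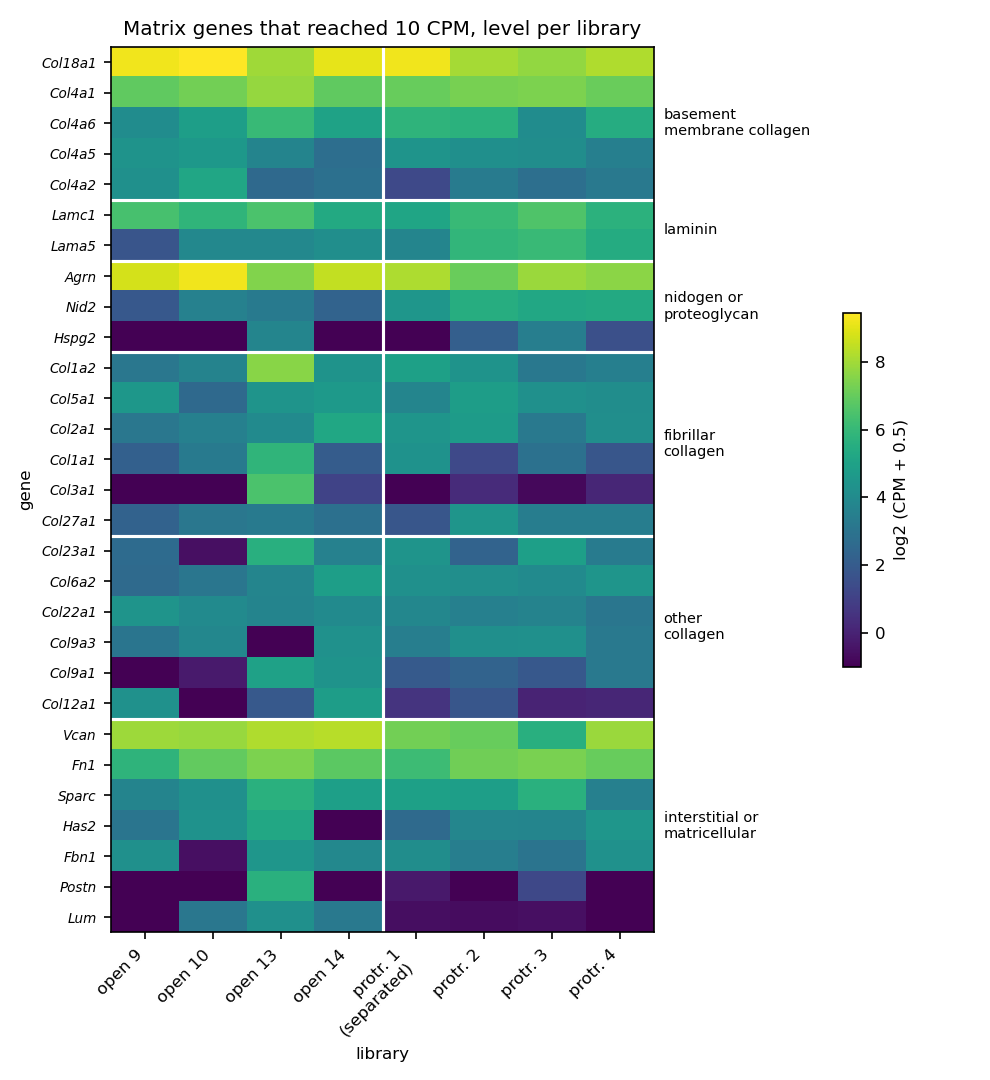
Level in the 8 libraries of the members that reached 10 CPM in at least 1 of them, as log2 of CPM plus 0.5, with genes in rows by class and libraries in columns. The same few genes, Col18a1, Agrn, Vcan, Col4a1 and Fn1, were bright in all libraries, while Col3a1, Col1a1, Col1a2 and Postn were bright in open neural tube 13.

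The comparison of protrusions with open neural tube asks what distinguishes the abnormal outgrowths from normally shaped neural plate of the same kind of pregnancy. The pieces also differed in markers of other tissues. T (Brachyury) and Tbx6 stood at 379 to 737 and 158 to 285 CPM in attached protrusions, and at 36.8 and 26.5 CPM in the separated one. In open neural tube they reached at most 16.9 and 1.38 CPM. The part of tissue makeup in the comparison was not tested. Among matrix genes, Nid2 and the laminin chain Lama5 stood higher in protrusions, by 2.26 ± 0.49 and 1.79 ± 0.61 on the log2 scale (± SE, 4 against 4 libraries). Agrn and Vcan stood lower, by −0.96 ± 0.34 and −1.01 ± 0.41. The minor fibrillar chain Col11a1 was read in every protrusion and in no open neural tube. None of these passed a Benjamini-Hochberg adjusted p of 0.05 in edgeR's quasi-likelihood test over all genes, and Fn1 and Col4a1 had fitted changes near 0.

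By that test 0 of the 38 members with enough reads passed in either direction, where 0.607% of the 11036 genes tested did, 0.281% higher and 0.326% lower. At an unadjusted p under 0.05 the count was 6 of 38 (15.8%), beside 15.3% of all genes tested: Col11a1, Lama5 and Nid2 were higher (7.89%, beside 7.02% of all genes), and Agrn, Col12a1 and Vcan lower (7.89%, beside 8.33%), in protrusions. DESeq2 and limma-voom each called 2 members (5.26%), Col11a1 and Nid2, both higher in protrusions, beside 7.2% and 3.35% of all genes called by these tools, 3.7% and 2% higher. The 4 protrusion values lay apart from the 4 open neural tube values for 2 of 38 members (5.26%), again Col11a1 and Nid2, beside 13.4% of all genes tested. Both were higher in protrusions, as were 8.84% of all genes, and no member lay wholly lower, as 4.55% of all genes did. Col11a1 had no reads in open neural tube and met the read filter through the protrusions alone. Its place in these counts, and in those with attached protrusions below, is therefore not independent support. Fitted changes were above 0 for 16 of 38 members (42.1%), beside 53.7% of all genes tested, and their median was −0.09 on the log2 scale, beside 0.08 over all genes. The 28 members not tested comprised 17 with at most 10 reads in any library and 11 with more. The latter included Col3a1, Postn, Lum, Col15a1 and Fbn2, all highest in open neural tube 13, with Dcn, Col11a2, Lama2, Lamb3 and Col6a3.

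Without the separated protrusion, 3 attached protrusions were compared with the 4 open neural tubes, which serve in both comparisons. Here 0 of 39 tested members passed, beside 1.5% of 11466 genes, and 6 (15.4%) had an unadjusted p under 0.05, beside 17.7%. Groups did not overlap for 7 members higher in attached protrusions (17.9%, beside 17.9% of all genes), namely Col11a1, Col13a1, Col27a1, Col6a1, Lama5, Lamb1 and Nid2, and for 1 lower (2.56%, beside 6.94%), Col22a1. When open neural tube 13 was left out as well, 2 of 38 members passed (5.26%), beside 1.88% of 11229 genes. Both were lower in attached protrusions, as were 0.855% of all genes: Agrn at −1.39 ± 0.26 (edgeR adjusted p = 0.0475) and Col18a1 at −1.31 ± 0.22 (adjusted p = 0.0373). For both genes the 2 libraries left out were the lowest open neural tube and the highest protrusion. Each gene passed in 1 of 9 alternatives of the attached comparison, with an edgeR adjusted p up to 0.404 for Agrn and 0.356 for Col18a1.

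**Figure D2:**
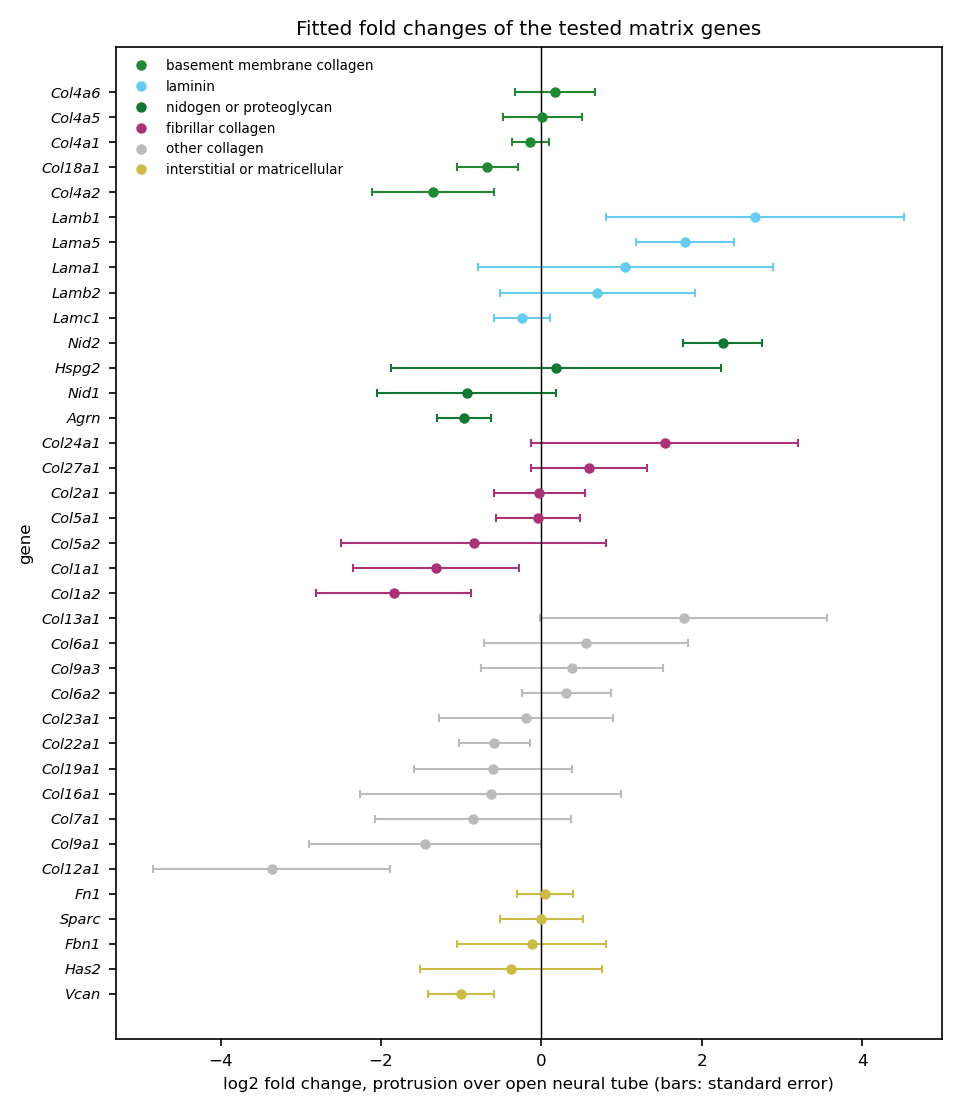
Fitted log2 fold change of protrusion over open neural tube for 37 of the 38 tested members, with standard errors as bars and colors for the classes. Col11a1 is left out because it had no reads in open neural tube. Nid2 at 2.26 and Lama5 at 1.79 lie to the right, Agrn at −0.96 and Vcan at −1.01 to the left, and no gene shown passed an adjusted p of 0.05.

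Basement membrane and fibrillar members were then set side by side. The 23 basement membrane genes together stood at 1309, 1642, 888 and 1127 CPM in open neural tubes 9, 10, 13 and 14 and at 1170, 834, 901 and 848 CPM in protrusions 1 to 4. The 11 fibrillar collagens together stood at 48.2, 55.8, 395 and 92.6 CPM in the same open neural tubes and at 94.1, 106, 58.4 and 66.3 CPM in the protrusions. Basement membrane tags thus outnumbered fibrillar tags in all 8 libraries, which, since tags differ in capture, is not a ratio of transcripts. The ratio of the 2 sums was 27.2, 29.5, 2.25 and 12.2 in open neural tubes 9, 10, 13 and 14, and 12.4, 7.84, 15.4 and 12.8 in protrusions 1 to 4. Open neural tube 13 had the lowest ratio of all, 9 and 10 had the highest, and 14 was close to the protrusions.

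The means of both sums overlapped between groups in their spread. Basement membrane genes summed to 1241 ± 318 CPM in open neural tube and 938 ± 157 CPM in protrusions (SD, n = 4 each). Fibrillar collagens summed to 148 ± 166 CPM and 81.3 ± 22.6 CPM. Without open neural tube 13 the fibrillar sum of the open group was 65.5 ± 23.8 CPM (SD, n = 3), below the protrusion mean, so 1 library set the direction of that difference. The basement membrane sum without that library was 1359 ± 261 CPM (SD, n = 3), from 1127 CPM upward. In attached protrusions it was 861 ± 35.0 CPM (SD, n = 3), at most 901 CPM, and in the separated one 1170 CPM. For this sum open neural tube 13 was the lowest of its group and the separated protrusion the highest.

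Of the 14 tested basement membrane members 8 had a fitted change above 0 and 6 below, with a median of 0.09 on the log2 scale. Of the 8 tested fibrillar collagens 3 were above and 5 below 0, with a median of −0.04, beside 0.08 over all genes tested. The fibrillar median was 0.05 without scaling factors, beside 0.17 over all genes in that setting. Without open neural tube 13 the fibrillar median was 0.62 and the basement membrane median 0.36, beside 0.17 over all genes. Within the basement membrane, 4 of 5 tested laminin chains were above 0 (median 1.05), as were 2 of 5 tested collagens (median −0.14) and 2 of 4 nidogens and proteoglycans (median −0.37). Of the 4 laminin chains above 0, Lama5, Lamb1 and Lamb2 have tags 500 bases or more from the transcript end, where 75.8% of all genes were above 0. Such medians are descriptions of a few chosen genes and carry no test.

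**Figure D3:**
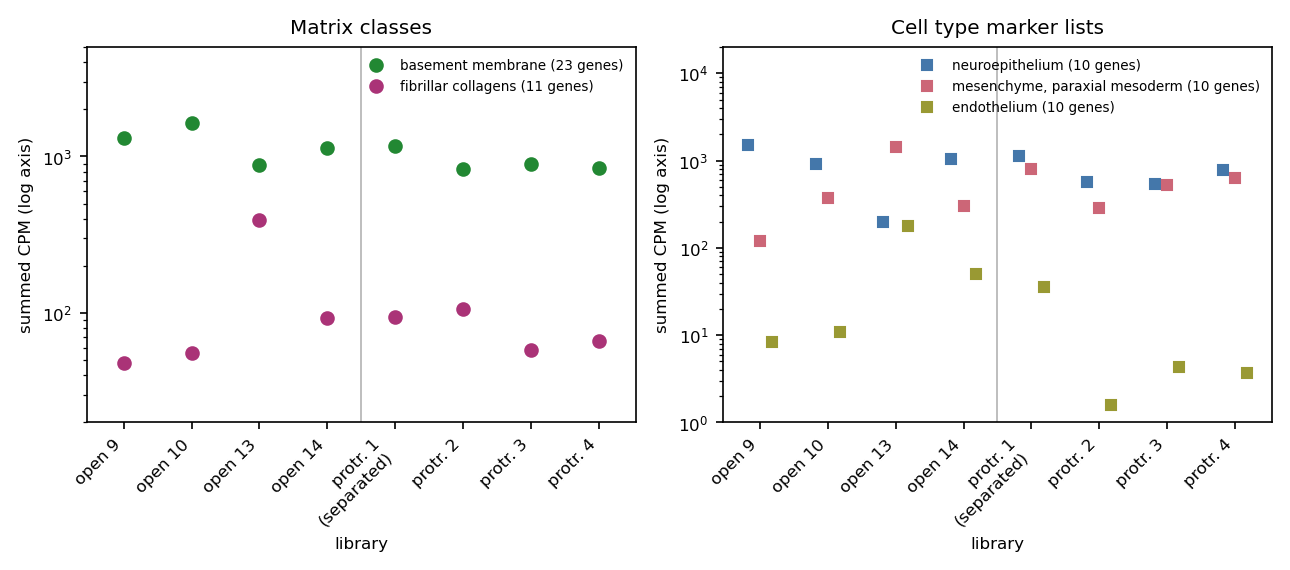
Left, summed CPM per library of the 23 basement membrane genes and the 11 fibrillar collagens. Right, summed CPM of 3 marker lists of 10 genes each; both vertical axes are logarithmic and the grey line parts open neural tubes from protrusions. In open neural tube 13 the fibrillar sum (395 CPM), the mesenchymal markers (1420 CPM) and the endothelial markers (177 CPM) were at their highest and the neuroepithelial markers (197 CPM) at their lowest.

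The most abundant member was Col18a1, the chain of type XVIII collagen, a basement membrane collagen that carries heparan sulfate. It stood at 597, 703, 253 and 532 CPM in open neural tubes 9, 10, 13 and 14 and at 596, 265, 215 and 295 CPM in protrusions 1 to 4. Open neural tubes 9, 10 and 14 and the separated protrusion formed the high libraries, and open neural tube 13 lay among the attached protrusions. The fitted change was −0.67 ± 0.38 over all 8 libraries (edgeR adjusted p = 0.452) and −1.09 ± 0.32 for the attached protrusions (adjusted p = 0.104).

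Agrin, a heparan sulfate proteoglycan of the basement membrane coded by Agrn, was highest in the same 3 open neural tubes. Its level was 439, 604, 179 and 358 CPM in open neural tubes 9, 10, 13 and 14 and 289, 135, 237 and 199 CPM in protrusions 1 to 4. All but open neural tube 13 lay above every protrusion. The fitted change was −0.96 ± 0.34 (edgeR adjusted p = 0.194), or −1.15 ± 0.36 for the attached protrusions (adjusted p = 0.120). Col18a1 and Agrn together made up 79.2%, 79.6%, 48.7% and 79.0% of the basement membrane sum in open neural tubes 9, 10, 13 and 14 and 75.6%, 47.9%, 50.2% and 58.2% in protrusions 1 to 4. In both genes the low open library was the one with the lowest neuroepithelial marker sum, 197 CPM, and the attached protrusions, at 537 to 780 CPM for those markers, were also below the other open neural tubes. Protrusion 1, at 1133 CPM of markers, lay above open neural tubes 10 (922 CPM) and 14 (1051 CPM). It had less Agrn than either, and its Col18a1 (596 CPM) lay between theirs (703 and 532 CPM). Of the attached protrusions, protrusion 3 had the lowest markers, the highest Agrn and the lowest Col18a1. The part of cell makeup in the level of either gene was not tested. Without Col18a1 and Agrn, the remaining basement membrane genes summed to 236 to 455 CPM in open neural tube and 285 to 449 CPM in protrusions.

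**Figure D4:**
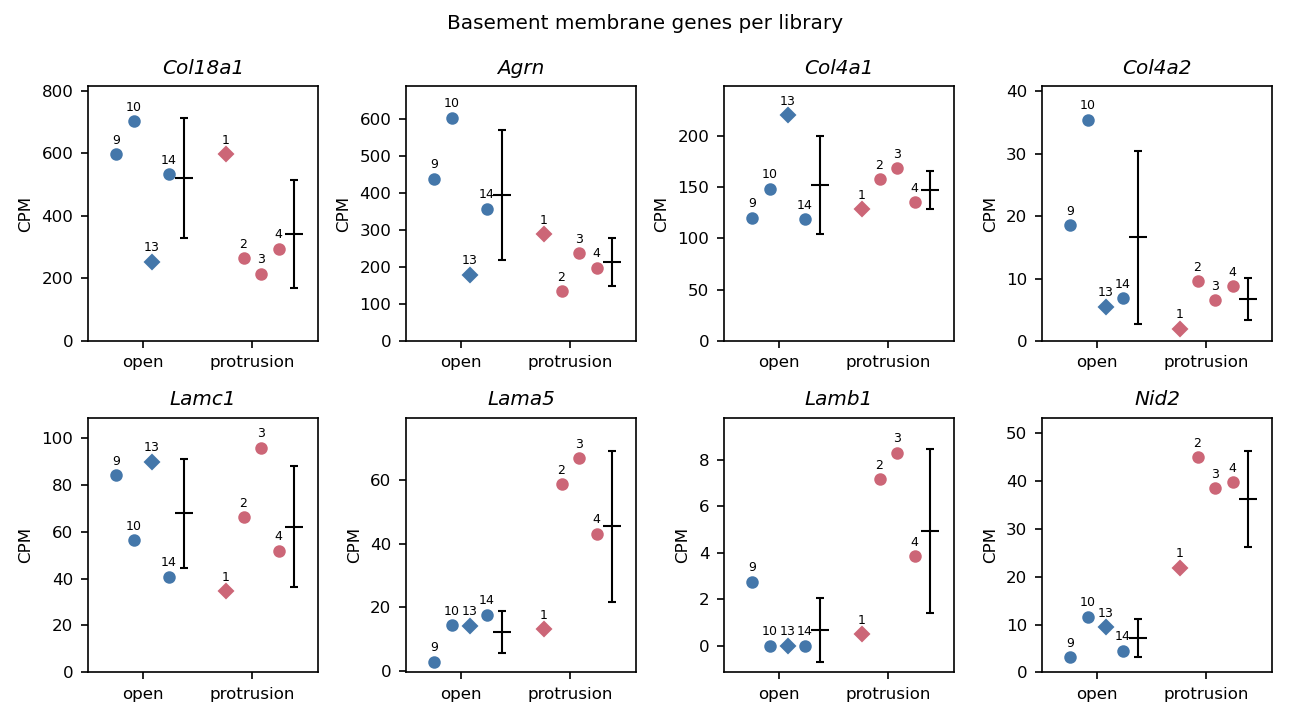
CPM of 8 basement membrane genes per library, with library numbers beside the points and the mean ± SD of each group of 4 as a bar. Diamonds mark open neural tube 13 and the separated protrusion 1. Nid2 is the gene shown whose groups do not overlap; for Col18a1 and Agrn open neural tube 13 lies low, and for Lama5 protrusion 1 lies among the open neural tubes.

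Type IV collagen is made chiefly of Col4a1 and Col4a2 chains, whose genes lie head to head. The promoters are shown because the genes share a stretch of promoter DNA while the levels of their tags differed. In RefSeq (GRCm38.p6) the annotated starts lie 21 bases apart on opposite strands, and 78 bases (chr8:11312777-11312854), in capitals, belong to both 300-base windows around the starts. Each window reads 5′ to 3′ on its own gene's strand, Col4a1 at chr8:11312777-11313076 (minus strand) and Col4a2 at chr8:11312555-11312854 (plus strand).
Col4a1: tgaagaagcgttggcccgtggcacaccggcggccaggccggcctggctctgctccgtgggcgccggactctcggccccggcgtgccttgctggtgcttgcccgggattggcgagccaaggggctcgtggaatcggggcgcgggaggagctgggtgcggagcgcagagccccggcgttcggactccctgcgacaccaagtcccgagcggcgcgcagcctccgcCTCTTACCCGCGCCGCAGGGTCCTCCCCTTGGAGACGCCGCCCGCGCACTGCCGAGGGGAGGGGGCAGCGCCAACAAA
Col4a2: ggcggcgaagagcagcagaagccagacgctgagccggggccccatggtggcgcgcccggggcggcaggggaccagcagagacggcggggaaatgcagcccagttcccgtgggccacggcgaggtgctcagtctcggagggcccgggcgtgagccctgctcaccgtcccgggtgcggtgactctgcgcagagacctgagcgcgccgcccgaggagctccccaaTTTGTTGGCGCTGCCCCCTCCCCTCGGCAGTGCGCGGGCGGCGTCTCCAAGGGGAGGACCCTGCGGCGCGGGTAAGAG

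Col4a1 stood at 120, 149, 220 and 119 CPM in open neural tubes 9, 10, 13 and 14 and at 128, 158, 169 and 135 CPM in protrusions 1 to 4. Open neural tube 13 was highest and the other 7 libraries lay within a narrow band. The fitted change was −0.14 ± 0.23 (edgeR adjusted p = 0.843), and without open neural tube 13 it turned to 0.14. Col4a2 stood at 18.6, 35.5, 5.46 and 6.80 CPM in the same open neural tubes and at 1.96, 9.61, 6.56 and 8.77 CPM in the protrusions. Open neural tubes 9 and 10 were high, the separated protrusion was lowest, and the groups overlapped (−1.35 ± 0.76, adjusted p = 0.453). Tags of Col4a1 outnumbered those of its partner chain in every library, by 4.19 to 40.3 times in open neural tube and by 15.4 to 65.4 times in protrusions. The level of a chain's tag also depends on how well that tag is captured, so this ratio is not a ratio of chains.

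The second pair of type IV genes, Col4a5 and Col4a6 on the X chromosome, is also head to head, with annotated starts 1343 bases apart (both genes chosen after their values were seen). Col4a5 stood at 20.4, 23.1, 12.7 and 6.45 CPM in open neural tubes 9, 10, 13 and 14 and at 20.6, 18.2, 16.9 and 11.1 CPM in protrusions 1 to 4. Col4a6 stood at 16.4, 28.2, 65.0 and 32.1 CPM and at 55.9, 50.9, 16.4 and 44.2 CPM. The groups overlapped for both genes. Their tags did not keep 1 order: Col4a6 exceeded Col4a5 in 6 of 8 libraries and lay below it in open neural tube 9 and protrusion 3. The longest coding transcript of Col4a5 gave no full-length tag.

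Among laminins the gamma chain Lamc1, shared by most laminin trimers, was the most abundant (chosen after its values were seen). Its level was 84.0, 56.3, 89.9 and 40.8 CPM in open neural tubes 9, 10, 13 and 14 and 34.7, 66.2, 95.7 and 51.8 CPM in protrusions 1 to 4, with wide overlap. Lama5, an alpha chain widespread in epithelial basement membranes, stood at 2.86, 14.3, 14.2 and 17.7 CPM and at 13.1, 58.6, 66.8 and 43.1 CPM. All 3 attached protrusions lay above every open neural tube, and the separated one lay among the open neural tubes. Markers of the primitive streak were also highest in the attached protrusions, but in the separated one they lay above every open neural tube. Their sum was 0.781 to 24.5 CPM in open neural tube, 66.7 CPM in the separated protrusion and 733 to 973 CPM in the attached ones. Without T (Brachyury), which is also on the notochord list, the other 5 streak markers, led by Tbx6 in the protrusions, summed to 0.239 to 7.59 CPM, 29.9 CPM and 236 to 441 CPM. The part of streak tissue in the levels of Lama5, and of Lamb1 and Nid2 below, was not tested. The fitted change of Lama5 was 1.79 ± 0.61 (edgeR adjusted p = 0.181), and 2.10 ± 0.55 for the attached protrusions (adjusted p = 0.0816).

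The beta chain Lamb1 had 2.76 CPM in open neural tube 9 and 0 reads in the other 3, against 0.491, 7.17, 8.31 and 3.85 CPM in protrusions 1 to 4. The attached protrusions were above every open neural tube, but the fit was wide (2.66 ± 1.86, adjusted p = 0.567). Lamb2, the alternative beta chain, and Lama1, the alpha chain of the first laminin of the embryo, overlapped between groups (both chosen after their values were seen). Lamb2 stood at 0.395 to 7.23 CPM in open neural tube and 0.818 to 6.30 CPM in protrusions. Lama1 reached 8.12 CPM in open neural tube 14 and at most 0.120 CPM in the other open neural tubes, and stood at 0 in the separated and at 4.33 to 8.32 CPM in the attached protrusions. Lamc1 tags exceeded those of Lama5 by 2.31 to 29.3 times in open neural tube and by 1.13 to 2.65 times in protrusions. Laminin tags together summed to 89.4 ± 20.5 CPM in open neural tube and 124 ± 58.8 CPM in protrusions (SD, n = 4 each), with the separated protrusion lowest at 50.7 CPM.

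Nidogens are glycoproteins that bind laminin and type IV collagen. Nid2 stood at 3.16, 11.6, 9.43 and 4.54 CPM in open neural tubes 9, 10, 13 and 14 and at 21.9, 45.02, 38.6 and 39.8 CPM in protrusions 1 to 4. All 4 protrusions were above all 4 open neural tubes, with the separated protrusion lowest of its group. The mean was 36.3 ± 10.002 CPM against 7.19 ± 4.01 CPM (SD, n = 4 each), a fitted change of 2.26 ± 0.49 (edgeR adjusted p = 0.0712), and 2.44 ± 0.52 for the attached protrusions (adjusted p = 0.0582). Over 14 alternatives its change ran from 2.07 to 2.61 and its adjusted p from 0.000819 with DESeq2 to 0.219. Nid1, the other family member, did not share this pattern (chosen after its values were seen): it stood at 3.55, 4.23, 9.49 and 0.358 CPM in open neural tube and at 3.93, 1.15, 2.19 and 2.64 CPM in protrusions. Perlecan, coded by Hspg2 (likewise chosen after its values were seen), had 13.03 CPM in open neural tube 13 and 0 in the other 3, and 0, 4.01, 10.5 and 2.40 CPM in protrusions 1 to 4.

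Among fibrillar collagens the type I and III chains, the main chains of interstitial fibers, were decided by 1 library. Col1a2 stood at 8.29, 12.4, 195 and 20.2 CPM in open neural tubes 9, 10, 13 and 14 and at 30.4, 20.4, 8.66 and 11.1 CPM in protrusions 1 to 4. Open neural tube 13 was 14.3 times the mean of the other 3 open neural tubes, which overlapped with the protrusions. The fitted change of −1.84 ± 0.97 (edgeR adjusted p = 0.411) turned to 0.35 without that library (adjusted p = 0.809). Its partner chain Col1a1 and the type III chain Col3a1 (both chosen after their values were seen) behaved alike in that library. Col1a1, whose coding transcript gave no full-length tag, stood at 4.15, 9.17, 56.1 and 3.58 CPM in open neural tube and at 19.8, 2.01, 7.00 and 3.005 CPM in protrusions. Col3a1 stood at 0, 0, 88.9 and 1.67 CPM and at 0, 0.717, 0.0875 and 0.601 CPM.

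Periostin, a matricellular protein of mesenchyme coded by Postn (chosen after its values were seen), had 48.9 CPM in open neural tube 13, 0 in the other open neural tubes and at most 1.92 CPM in protrusions. Open neural tube 13 was the highest of the 8 libraries for 19 of 63 members with a read, beside 11.1% of 18121 genes with a read. These were 7 of 9 interstitial or matricellular genes, 4 of 11 fibrillar collagens and 3 of 7 basement membrane collagens. The rest were 2 of 4 nidogens or proteoglycans, 1 of 11 laminin chains and 2 of 21 other collagens. In the same library 6 of 10 mesenchymal markers were at their highest, among them Pdgfra at 475 CPM and Twist1 at 316 CPM, and 7 of 10 endothelial markers, among them Tek at 106 CPM. The endothelial receptors Kdr and Flt1 were at 0 there, as in every open neural tube. Blood markers summed to 924 CPM, close to the 1009 CPM of open neural tube 14, whose fibrillar sum was 92.6 CPM. Of 15 parietal and visceral endoderm markers 6 were at their highest in open neural tube 13, among them Sox7 at 142 CPM, Gata4 at 87.7 CPM and Gata6 at 55.4 CPM; their sum was 393 CPM there and at most 129 CPM elsewhere. Surface ectoderm markers summed to 282 CPM, of which Krt18 made 197 CPM, against at most 78.7 CPM in the other open neural tubes and 181 CPM in a protrusion. The part of these cell types in the collagen levels was not tested.

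The promoters of Col1a2 and Col3a1 are shown because both genes were highest in the same library and the motif letters in their windows differed. Capitals mark CCAAT or its reverse complement ATTGG in Col1a2 (chr6:4505368-4505667, plus strand) and TATAAA in Col3a1 (chr1:45311288-45311587, plus strand), from RefSeq, GRCm38.p6.
Col1a2: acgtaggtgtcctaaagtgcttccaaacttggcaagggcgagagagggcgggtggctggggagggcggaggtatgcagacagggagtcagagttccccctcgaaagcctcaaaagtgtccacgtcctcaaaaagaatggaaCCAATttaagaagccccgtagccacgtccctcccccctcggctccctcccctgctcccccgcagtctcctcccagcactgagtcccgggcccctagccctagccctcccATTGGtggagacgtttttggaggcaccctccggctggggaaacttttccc
Col3a1: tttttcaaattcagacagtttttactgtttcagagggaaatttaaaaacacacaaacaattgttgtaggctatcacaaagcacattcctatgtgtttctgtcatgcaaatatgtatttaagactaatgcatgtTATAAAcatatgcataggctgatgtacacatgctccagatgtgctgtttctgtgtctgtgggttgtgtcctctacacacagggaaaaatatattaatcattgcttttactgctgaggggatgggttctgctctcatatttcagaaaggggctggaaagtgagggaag

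Searched on both strands, CCAAT or ATTGG occurred in 37.4% of 32851 promoters of the same length, GGGCGG or CCGCCC in 35.7% and TATAAA or TTTATA in 13.6%. In the 52 promoters of the 46 members found in the table the shares were 32.7%, 59.6% and 11.5%. The windows of Col4a1, Col4a2 and Col1a2 held both of the first 2 motifs and not the last, and that of Col3a1 only the last. A match is a run of letters and not a shown binding site.

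Col11a1, a minor fibrillar chain that joins type II collagen fibers, was at 0 in every open neural tube and had 3.60, 2.87, 1.84 and 2.52 CPM in protrusions 1 to 4, which were 20 to 22 reads each. Every protrusion, the separated one included, lay above every open neural tube. The protrusion mean of 2.71 ± 0.733 CPM (SD, n = 4) was 5.11 times the level that 3 reads stand for in the smallest open library. That floor covers counting error only and is no upper limit on the level in open neural tube. The edgeR adjusted p was 0.0824, and 0.00612 with DESeq2 and 0.0286 with limma-voom. The gene met the read filter through the protrusions alone, so these values are not independent of where it is high. Among 3044 genes averaging 1 to 5 CPM, the share with no read was 34.7% to 56.8% in an open neural tube and 2.50% to 8.18% in a protrusion, and the part of this in the difference was not tested.

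The other fibrillar chains of note overlapped between groups (chosen after their values were seen). Col2a1, the chain of cartilage and notochord sheath fibers, stood at 8.39, 11.3, 15.4 and 36.5 CPM in open neural tubes 9, 10, 13 and 14 and at 21.4, 26.1, 8.84 and 17.3 CPM in protrusions 1 to 4. Summed notochord markers were 12.2 to 67.9 CPM in open neural tube, 44.2 CPM in the separated and 425 to 820 CPM in the attached protrusions, and most of the last was T, at 379 to 737 CPM. The other 5 notochord markers summed to 11.9 to 51.0 CPM in open neural tube, 7.36 CPM in the separated and 46.0 to 82.7 CPM in the attached protrusions, with overlap between groups. Col5a1, a chain that starts type I fibers, stood at 22.9, 5.47, 21.01 and 23.9 CPM and at 12.9, 28.0, 18.4 and 16.8 CPM.

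Of the other collagens, Col12a1, a chain that decorates the surface of fibrils, had 19.3, 0, 3.24 and 27.7 CPM in open neural tubes 9, 10, 13 and 14 and 0.982, 3.01, 0.525 and 0.601 CPM in protrusions 1 to 4. Open neural tubes 9 and 14 were high and the protrusions low, but open neural tube 10 had no reads and the groups overlapped (−3.36 ± 1.47, edgeR adjusted p = 0.310). Col22a1, a collagen of tissue junctions, ranged from 12.6 to 20.6 CPM in open neural tube and from 8.05 to 13.9 CPM in protrusions (−0.59 ± 0.44, adjusted p = 0.608). Col23a1, a transmembrane collagen, and Col6a2, a chain of the beaded filaments, were among the more abundant of the rest (both chosen after their values were seen). Col23a1 spread from 0.176 to 47.4 CPM in open neural tube and from 4.59 to 29.0 CPM in protrusions, and Col6a2 from 5.63 to 28.4 CPM and from 15.6 to 21.2 CPM. Of the 11 tested members of this class 4 had a fitted change above 0 and 7 below, with a median of −0.59.

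Fibronectin, coded by Fn1, the adhesive glycoprotein of the early embryonic matrix, stood at 55.1, 124, 170 and 112 CPM in open neural tubes 9, 10, 13 and 14 and at 70.5, 146, 163 and 130 CPM in protrusions 1 to 4. The groups overlapped over nearly their whole range, and the fitted change was 0.05 ± 0.35 (edgeR adjusted p = 0.973). Vcan, the hyaluronan-binding proteoglycan versican, stood at 243, 230, 294 and 323 CPM and at 151, 131, 47.6 and 239 CPM. Protrusions 1 to 3 were below every open neural tube and protrusion 4 was within their range (−1.01 ± 0.41, adjusted p = 0.267). Has2, the main hyaluronan synthase of the embryo, had 7.90, 19.6, 38.4 and 0 CPM and 5.56, 13.6, 12.9 and 21.9 CPM, and its fitted change of −0.38 ± 1.13 (adjusted p = 0.923) turned to 0.53 without open neural tube 13.

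Sparc, a collagen-binding matricellular protein, and Lum, the keratan sulfate proteoglycan lumican, were read beside these (both chosen after their values were seen). Sparc had 12.5, 18.3, 48.9 and 29.7 CPM in open neural tube and 30.6, 28.5, 48.7 and 11.2 CPM in protrusions. Lum had 0, 8.29, 18.3 and 8.95 CPM in open neural tubes 9, 10, 13 and 14 and 0, 1 or 2 reads in each protrusion, below the 3-read floor. The 3 open neural tubes with reads were thus above all protrusions and open neural tube 9 was not.

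Genes that bind, process or degrade the matrix were taken from 4 further lists of 136 genes, of which 135 were found and 85 could be tested. In the comparison of all 8 libraries 0 of 85 rose and 1 fell, beside 0.281% higher and 0.326% lower of all genes tested. With attached protrusions alone 0 of 90 rose and 3 fell, beside 87 higher and 85 lower of 11466 genes tested. The gene that fell in both was Glt25d1, a galactosyltransferase that adds sugar to collagen hydroxylysines (now Colgalt1). It stood at 773, 760, 787 and 973 CPM in open neural tubes 9, 10, 13 and 14 and at 357, 426, 406 and 525 CPM in protrusions 1 to 4, a change of −1.03 ± 0.18 (edgeR adjusted p = 0.0438). All protrusions were below all open neural tubes. The call was lost in 8 of 14 alternatives (adjusted p up to 0.115): with protrusions 1 and 2 summed and without each library in turn, except protrusion 1. The attached call (−0.95, adjusted p = 0.0499) was lost in 7 of 9 alternatives (adjusted p up to 0.172), without each library in turn. The change itself stayed within −1.15 to −0.90 over all 8 libraries and −1.09 to −0.79 with attached protrusions, in the settings that left out 1 library. With attached protrusions alone Efemp1, a fibulin, fell by 2.97 on the log2 scale (adjusted p = 0.0309) and Hapln1, which links hyaluronan to proteoglycans such as versican, had a change of −4.45 (adjusted p = 0.0491). These calls were lost in 5 and 6 of 9 alternatives, Efemp1 without open neural tube 9 or 14 or protrusion 2, 3 or 4 and Hapln1 without those or open neural tube 10. Hapln1 stood at 52.6, 61.9, 349 and 72.7 CPM in open neural tube, at 112 CPM in the separated and at 3.24 to 9.75 CPM in the attached protrusions.

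Of the 16 tested matrix receptors 0 passed, with the smallest p for Itgav, an integrin chain that binds fibronectin and vitronectin, at 36.1 ± 11.04 CPM in open neural tube and 70.3 ± 14.2 CPM in protrusions (edgeR adjusted p = 0.158), and Hmmr, a hyaluronan-binding protein of the mitotic spindle (95.4 ± 21.6 against 62.4 ± 12.4 CPM, adjusted p = 0.201; SD, n = 4 each). With attached protrusions Itga6, an integrin chain that binds laminin, joined Itgav: it had at most 1.09 CPM in open neural tube and 8.17 to 17.5 CPM in attached protrusions (adjusted p = 0.148). Of 16 proteases and inhibitors 0 passed. Adamts1, a protease that cleaves versican, stood at 128 ± 40.0 CPM in open neural tube and 38.3 ± 13.4 CPM in protrusions (SD, n = 4 each; −1.82 ± 0.35, adjusted p = 0.0507, and past the threshold in 5 of 14 alternatives), and Adamts20, a related protease, had a change of 1.29 ± 0.48 (adjusted p = 0.226). Of 21 collagen-processing genes the next in line after Glt25d1 was Loxl1, a crosslinking oxidase (−2.23 ± 0.68, adjusted p = 0.134). Of 32 other matrix genes 0 passed with all 8 libraries, with Spon1 at −3.06 ± 0.85 (adjusted p = 0.105) and Efemp1 at −2.11 ± 0.60 (adjusted p = 0.107).

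The distance from the tag to the transcript's end was examined after the values were seen, because SAGE tags far from the end need longer intact cDNA. Over all genes tested and matched, the median log2 fold change was −0.14 for 3246 genes with under 100 bases, 0.01 for 2328 genes with 100 to under 200, 0.26 for 2876 genes with 200 to under 500 and 0.69 for 924 genes with 500 or more. Genes with tags far from the end thus stood higher in protrusions in general. Distances were counted from the last CATG, also where it lay too near the end to give a 21-base tag. Tested members of that kind were Col1a1, Col4a5, Col5a2 and Col19a1, all in the set under 100 bases. Spearman's rho between distance and fold change was 0.255 across these 9374 genes and 0.477 across the 38 tested members, as a description, since genes of the same libraries are not independent. Shares of reads were taken over the reads of these 9374 genes. Genes with 500 bases or more held 3.37% to 4.36% in open neural tube, 3.85% in the separated protrusion and 5.71% to 7.05% in the attached ones. Genes with under 100 bases held 40.0% to 44.5% in open neural tube, 38.9% in the separated protrusion and 36.2% to 37.4% in the attached ones.

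Lama5, Lamb1 and Lamb2, whose tags lie 508, 734 and 780 bases from the end, were thus in the set whose median was 0.69. The fitted changes of Lama5 and Lamb1 lay above 82.1% and 91.1% of genes in that set, while that of Lamb2, at 0.70, lay at its median. Nid2, at 169 bases, lay above 96.6% of genes of 100 to under 200 bases, whose median was 0.01. Agrn, at 28 bases, was in the set whose median was −0.14 and lay above 11.2% of its genes. Col18a1, at 22 bases in its longest coding transcript, lay above 20.9% of the genes of that set. Col4a1, at 505 bases, lay above 18.1% of the genes of 500 bases or more. The part of tag position in the members' differences was not tested.

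**Figure D5:**
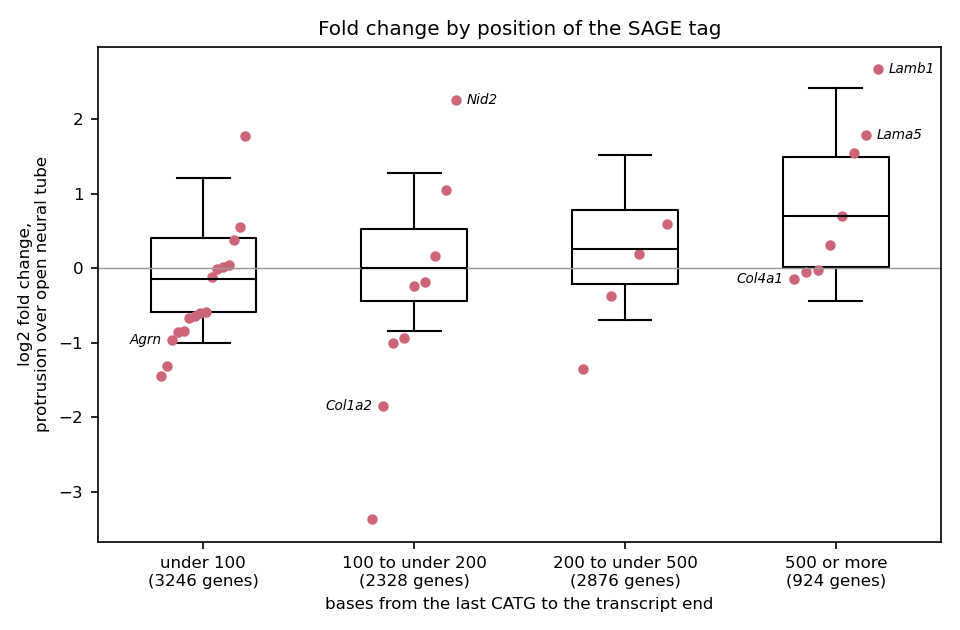
Log2 fold change of protrusion over open neural tube by the distance in bases from the last CATG to the transcript end, in 4 ranges. Boxes give the quartiles and median of all tested genes, whiskers the percentiles 10 and 90, and red points the tested members except Col11a1, which had no reads in open neural tube. The medians rise from −0.14 to 0.69 with distance, Lama5 and Lamb1 lie in the range of 500 or more, and Nid2 lies above the upper whisker of its own range.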

How the data were processed

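Neural tube tissue of 8 samples was profiled by SAGE on the SOLiD system from 7 to 12 ng of total RNA each, per the labels' protocols. The authors deposited whole-number read counts per gene symbol, without normalization. The submitters' processing notes name build mm9; how reads were mapped, how tags were given to genes and whether strand was used are not stated in these sources. Groups follow the labels, open neural tube replicate numbers come from the titles, and protrusions are numbered in listed order.

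CPM were computed from the deposited counts and the library totals of 5668054 to 16655583 reads. Means are given with SDs over libraries. Floors of 3 reads cover counting error only, since PCR copies of a molecule count as separate reads. Differences were tested on counts over all genes with edgeR 4.0.16 in R 4.3.3 (filterByExpr with a minimum count of 10, TMM factors, robust quasi-likelihood F test, 2-sided, Benjamini-Hochberg threshold 0.05) and the fit was tested on simulated data. Standard errors were taken from the F statistic and the fold change. Comparisons were all protrusions, and attached protrusions alone, against open neural tube.

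The members, classes and related lists were chosen with earlier results of these data known. The text names members past the threshold, those with a mean of at least 100 CPM in a group and the 2 with the smallest p in each class; members named otherwise are said to be chosen after their values were seen. Of the related lists it names genes past the threshold and the 2 with the smallest p in each. Alternatives were DESeq2 1.42.0, limma-voom (limma 3.58.1), relative log expression factors, no scaling factors, no low-count filter, protrusions 1 and 2 summed, TMM-scaled CPM and each library left out in turn. Expected tags came from GENCODE M21 (GRCm38) and promoters from RefSeq (GRCm38.p6, 46 of 66 members matched). Values are given for named members; other members enter counts, ranges and sums.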

Additional observations from a re-analysis of the deposited data

Results flagged for a closer look

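Levels of the named genes and summed levels of the classes were checked for a library that lay far from the other 3 of its group, by the gap to its nearest neighbour as a share of the group's range. Of 96 group values, 15 held such a library, and 7 of the 15 were in open neural tube 13. Chance gives about 1 in 20 for groups not chosen by their values, but several of these genes were chosen after their values were seen, some share a class sum, and a gene read in 1 library of a group always meets the rule, so the 15 cannot be set against that share.

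There the type I and III collagen chains Col1a2 (195 CPM, the others 8.29 to 20.2 CPM), Col1a1 (56.1 CPM, the others 3.58 to 9.17 CPM) and Col3a1 (88.9 CPM, the others 0 to 1.67 CPM) stood far above the rest. The same held for Postn (48.9 CPM) and Hspg2 (13.03 CPM), both at 0 in the other 3, and for the summed fibrillar collagens (395 CPM, the others 48.2 to 92.6 CPM). Among basement membrane genes, open neural tube 9 had 2.76 CPM of Lamb1, which was at 0 in the other 3. Lama1 reached 8.12 CPM in open neural tube 14 and at most 0.120 CPM elsewhere in its group. Col5a1 was low in open neural tube 10, at 5.47 CPM, with the others at 21.01 to 23.9 CPM. In protrusion 3, Postn stood at 1.92 CPM, with the others at 0 to 0.327 CPM, and the summed other collagens at 100.4 CPM, with the others at 73.4 to 75.7 CPM. Among the related genes, Hapln1 was high in open neural tube 13 (349 CPM, the others 52.6 to 72.7 CPM) and in the separated protrusion 1 (111.9 CPM, the others 3.24 to 9.75 CPM). Glt25d1 was high in open neural tube 14 (973 CPM, the others 760 to 787 CPM) and Itga6 in open neural tube 9 (1.09 CPM, the others at most 0.176 CPM).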

How the results depend on the processing

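No paired analysis was possible because the groups share no replicate numbers. Over all genes, 67 passed the threshold; DESeq2 gave 795, limma-voom 370, protrusions 1 and 2 summed 36, and leaving out 1 library gave 1 (without open neural tube 9) to 172 (without protrusion 1). Members past the threshold numbered 0, with 2 under DESeq2 and 2 under limma-voom, and 0 in every setting that left out 1 library; with attached protrusions alone they numbered 0 to 2, the 2 without open neural tube 13. The fibrillar median of −0.04 ran from −0.24 to 0.62 over libraries left out, the highest without open neural tube 13. The basement membrane median of 0.09 ran from −0.16 (without open neural tube 14) to 0.36 (without 13). Fitted genes named by rule whose direction turned over libraries left out were Col4a1 (−0.19 to 0.14), Col1a2 (−2.24 to 0.35) and Has2 (−0.73 to 0.53), each highest without open neural tube 13, and Fn1 (−0.12 without open neural tube 9, to 0.35). Has2 also turned with limma-voom (0.85). Among genes named after their values were seen, the protrusion minus open difference in mean CPM turned for Col1a1 (−15.2 to 2.32), Postn (−15.7 to 0.563), Hspg2 (−1.12 to 4.23), Sparc (−3.95 to 9.55) and Col23a1 (−5.65 to 10.1), each highest without open neural tube 13, and for Lamc1 (−16.8 to 3.497), Col2a1 (−2.65 to 6.73), Col5a1 (−3.58 to 2.74) and Col4a5 (−2.07 to 3.49). The cause was not tested. Without scaling factors the median over all genes in the attached comparison moved from 0.09 to 0.19, and calls there were 128 higher and 83 lower against 87 and 85. Depth limits members near the 3-read floor, and missed transcripts limit the open neural tubes further.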
